A study of Mus musculus with 45 samples.

Results

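The proteasome genes of single mouse oocytes were described here from read counts per gene. Members were all protein-coding rows whose symbol begins with Psm, a letter from a to g and a digit, which took 51 of the 55357 genes counted. Of these, 49 are subunits, regulators or assembly factors of the proteasome. The other two carry a matching symbol but are not parts of the particle: Psmc3ip, known as Hop2 and needed for meiotic recombination, and Psme3ip1, which binds the activator encoded by Psme3.

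Each of the 45 libraries was 1 oocyte. The labels give 5 groups. In 3 of them the oocyte came from a reconstituted chimeric follicle (RCF): AA was aged oocyte with aged somatic cells (12 libraries), AY aged oocyte with young somatic cells (6) and YY young oocyte with young somatic cells (11). The controls were oocytes of young mice after in vitro culture (in vitro young, 8) or without it (in vivo young, 8). A reconstituted chimeric follicle is a cultured follicle whose own oocyte was replaced by that of another follicle, so YY shares the transfer and the culture with AA and AY. The ages in months, the strain and the meiotic stage are not given in the sources used here, and no label ties an oocyte to an animal. The p-values therefore reflect the scatter among these oocytes, part of which may be technical, and the number of mice behind a group is unknown. Total counts ranged from 418703 to 2201980 per library. The library numbers follow the groups: AA holds S268 to S279 and AY S234 and S240 to S244. YY holds a first series S198 to S202 (n = 5) and a second series S225 to S231 (n = 6). The in vitro young libraries have numbers between S128 and S165, and the in vivo young ones S17, S18 and numbers between S71 and S77. Library series and group therefore cannot be told apart in any of the comparisons. Zona pellucida and other oocyte markers summed to 14184 to 20642 CPM (counts relative to the library total, unscaled here) in AA and 13781 to 19857 in YY, and all 10 had counts in every group. Granulosa and cumulus markers summed to 72.6 to 276.04 CPM in AA, 68.9 to 212 in AY and 56 to 104 in YY. Of that list, Amh was at 0 in every group and Foxl2 at 0 in YY and in both control groups. Mitochondrially encoded genes held 0.0765% to 0.177% of the counts in AA, 0.159% to 0.405% in AY and 0.0706% to 0.534% in YY. Within YY the share was 0.0706% to 0.22% in S198 to S202 and 0.232% to 0.534% in S225 to S231. The part of granulosa transcripts or of the mitochondrial share in the results was not tested.

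The proteasome degrades proteins tagged with ubiquitin. Its 20S core is a barrel of alpha rings, which gate the entry, and beta rings, which hold the proteolytic sites. The 19S regulatory particle caps the barrel: the base unfolds the substrate with a ring of ATPases, and the lid removes the ubiquitin chain. Assembly chaperones build both parts, and activators and an inhibitor bind the ends of the core. In mammals, transcription of the subunits is raised together by Nfe2l1, which binds antioxidant response elements when proteasome activity falls. Oocytes carry a large maternal store of transcripts, and protein breakdown drives their passage through meiosis.

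Promoters are printed for the 4 members with the smallest p between AA and YY, and for Psmd12, a lid gene whose window holds an antioxidant response element core. Each is the RefSeq sequence from 250 bases before to 50 bases after the gene's start, on GRCm38.p6, 5′ to 3′ on the gene's strand, with matches to TGACNNNGC (the element's core) or CCAAT on either strand in capitals. The windows are chr2:151741261-151741560 on the minus strand (Psmf1), chr2:34870913-34871212 on the minus strand (Psmd5), chr12:100109952-100110251 (Psmc1), chr16:20651402-20651701 (Psmd2) and chr11:107479278-107479577 (Psmd12), the last 3 on the plus strand.
Psmf1: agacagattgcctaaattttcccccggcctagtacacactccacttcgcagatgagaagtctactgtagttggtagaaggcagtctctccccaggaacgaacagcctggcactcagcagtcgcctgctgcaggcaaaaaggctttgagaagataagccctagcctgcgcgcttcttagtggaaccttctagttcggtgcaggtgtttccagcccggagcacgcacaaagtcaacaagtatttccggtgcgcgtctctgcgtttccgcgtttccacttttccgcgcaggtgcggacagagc
Psmd5: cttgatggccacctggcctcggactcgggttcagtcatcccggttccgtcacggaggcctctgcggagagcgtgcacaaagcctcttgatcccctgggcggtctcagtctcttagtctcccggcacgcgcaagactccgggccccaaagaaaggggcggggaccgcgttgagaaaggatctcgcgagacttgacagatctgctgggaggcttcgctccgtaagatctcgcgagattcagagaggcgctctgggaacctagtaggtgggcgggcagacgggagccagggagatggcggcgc
Psmc1: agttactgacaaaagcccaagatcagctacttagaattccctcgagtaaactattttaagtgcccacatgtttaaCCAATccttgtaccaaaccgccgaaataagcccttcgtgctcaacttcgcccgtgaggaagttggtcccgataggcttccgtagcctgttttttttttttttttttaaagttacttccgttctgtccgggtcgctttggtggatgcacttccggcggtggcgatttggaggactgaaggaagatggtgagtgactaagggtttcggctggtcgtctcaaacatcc
Psmd2: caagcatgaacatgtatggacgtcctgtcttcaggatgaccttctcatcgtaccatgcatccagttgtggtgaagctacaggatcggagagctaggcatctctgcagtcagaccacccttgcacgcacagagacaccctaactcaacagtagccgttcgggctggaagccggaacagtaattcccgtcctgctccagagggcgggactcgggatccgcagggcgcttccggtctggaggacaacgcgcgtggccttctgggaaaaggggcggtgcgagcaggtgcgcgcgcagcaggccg
Psmd12: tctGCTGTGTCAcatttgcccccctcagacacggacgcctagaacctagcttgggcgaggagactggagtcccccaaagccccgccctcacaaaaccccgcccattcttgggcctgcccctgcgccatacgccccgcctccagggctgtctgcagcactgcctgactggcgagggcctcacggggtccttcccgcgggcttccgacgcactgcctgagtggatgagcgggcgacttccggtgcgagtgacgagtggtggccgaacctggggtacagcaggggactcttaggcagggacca
The Psmc1 window held CCAAT at position -175 from the start and the Psmd12 window held the element core at position -247, on the opposite strand, so that the printed strand reads GCTGTGTCA there. No match to either motif lay in the windows of Psmf1, Psmd5 and Psmd2. Over the 47 promoter windows of the 43 member genes matched by symbol, the element core lay in 6 (12.8%), against 12.4% of all 32851 windows, and CCAAT in 16 (34%), against 37.4%. The 6 genes with the element core were Psmb5, Psmb6, Psmc6, Psmd9, Psmd12 and Psme4.

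Levels were compared between genes as CPM per kilobase of the longest protein-coding transcript, averaged over all 45 libraries. The alpha ring had a median of 127 CPM per kb over its 7 genes, the beta ring 191 over 7, the base ATPases 160 over 6, the non-ATPase base 60.9 over 3 and the lid 59 over 8. Psma7 was highest of all members at 651 CPM per kb, followed by the catalytic subunit Psmb6 at 541, Psmb2 at 410 and the ubiquitin receptor Psmd4 at 381. Subunits of the same ring, which the particle holds in equal number, had very unequal counts. Psmb5, which carries the chymotrypsin-like site, had 21.6 CPM per kb, and in the alpha ring Psma3 had 11. The lid subunit Psmd13 had 0.92 CPM per kb, from 82 counts in all 45 libraries, at a locus that overlaps Sirt3 and a pseudogene, Gm15542. Those 2 rows held 4432 counts, and how reads shared by overlapping rows were treated is not known, so the level of Psmd13 is uncertain.

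**Figure D1:**
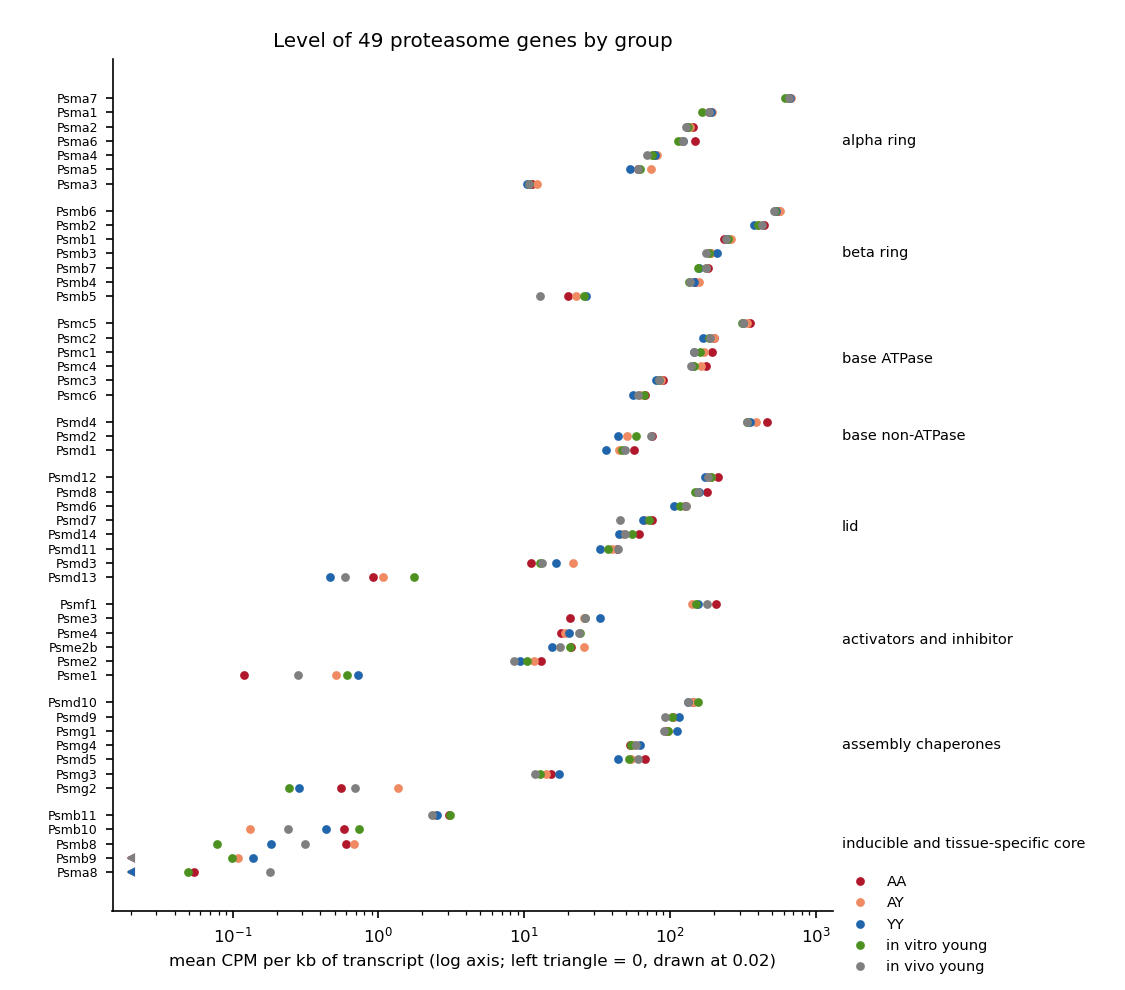
Mean level of each of the 49 subunits, regulators and assembly factors in the 5 groups, in CPM per kb of transcript on a log axis, ordered within roles. Psma7 and Psmb6 lie highest in the core, and Psmb8, Psmb9, Psmb10 and Psma8 lie lowest among the core genes in every group.

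The subunits that replace constitutive ones in immune cells or in single tissues were close to the limit of counting. Psmb8 had 20 counts over the 45 libraries, Psmb10 25 and Psmb9 4, which together encode the catalytic sites of the immunoproteasome. Psma8, the alpha subunit of the spermatocyte proteasome, had 3 counts. Psmb9 had 0 counts in the 12 AA libraries, which allows up to 0.3 CPM, and 0 in the 8 in vivo young libraries, which allows up to 0.334. Psma8 had 0 counts in AY, which allows up to 0.607 CPM, and 0 in YY, which allows up to 0.347. Psmb11, the thymic subunit, averaged 12.9 ± 5.44 CPM in AA, 10.4 ± 3.79 in AY, 10.8 ± 5.7 in YY, 13.1 ± 3.43 in in vitro young and 9.87 ± 6.04 in in vivo young oocytes (SD). Psme1, a subunit of an interferon-induced activator, had 20 counts, and the core assembly chaperone Psmg2 had 32. These limits cover counting error only. Together with Psmd13, the 6 of these genes other than Psmb11 were too low to test, and 44 of the 51 members passed the filter on low counts in both fits.

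The comparison of AA with YY sets an aged follicle against a young one. Of the 16 tested 19S regulatory particle genes taken by symbol, 11 rose in AA and none fell. None of the 16 was called against YY libraries S198 to S202 alone. Adrm1 and Sem1, 19S subunits with other symbols, are not among the 16. Neither was called (log2 fold change 0.07 and 0.03). Of the 14 constitutive core subunits, 2 rose. The inhibitor Psmf1 and the base assembly chaperone Psmd5 rose, and the nuclear activator Psme3 fell. Over all 44 tested members, 16 rose (36.4%) and 1 fell (2.27%) at an edgeR adjusted p under 0.05, against 12.8% higher and 14.7% lower of the 8533 genes tested. Without Psmc3ip and Psme3ip1, 15 of 42 rose and 1 fell. The median log2 fold change was 0.18 over the members and -0.01 over all genes, and it was 0.28 over the 19S particle and 0.04 over the core. Whether the particles differ from each other was not tested.

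**Figure D2:**
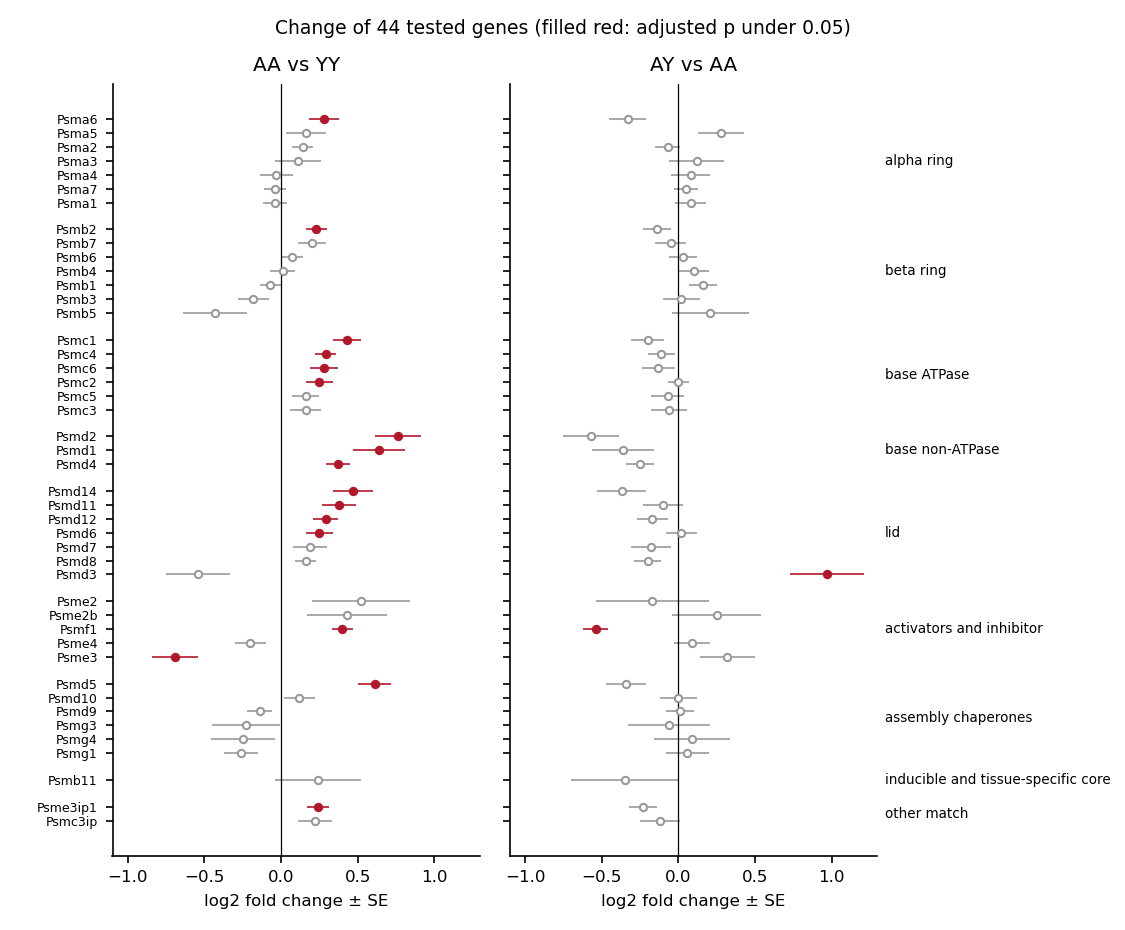
Log2 fold change with its standard error for the 44 tested members, AA over YY and AY over AA, grouped by role, with called genes in filled red. In AA over YY, all 3 non-ATPase base genes lie between 0.37 and 0.76, while core genes run from -0.43 to 0.28.

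All 3 non-ATPase base genes taken by symbol rose. The base subunit Adrm1, outside the symbol rule, was not called (log2 fold change 0.07 ± 0.08, edgeR adjusted p = 0.594). Psmd2, the scaffold that docks shuttle factors and the deubiquitinase Usp14, had 151 CPM in the lowest AA library, a median of 230.8 and 280 in the highest, against 51.6, 116 and 197 in YY. Its log2 fold change was 0.76 ± 0.15 (SE; edgeR adjusted p = 0.000322). Psmd1, the other large scaffold, had 123, 173 and 218 CPM (lowest, median and highest) in AA and 65.1, 106 and 183 in YY, a log2 fold change of 0.64 ± 0.17 (edgeR adjusted p = 0.00409). Psmd4, an intrinsic ubiquitin receptor and the most abundant of the 3, had 716, 813 and 915 CPM in AA and 442, 658 and 724 in YY, a log2 fold change of 0.37 ± 0.08 (edgeR adjusted p = 0.000324). For each of the 3 genes the AA and YY ranges overlapped, and all 12 AA libraries lay above the YY median. In in vivo young oocytes Psmd2 ran from 96.01 to 303.4 CPM, Psmd1 from 86.45 to 220.1 and Psmd4 from 514 to 687.2. In in vitro young oocytes they ran from 123.6 to 266.8, 117.6 to 201.6 and 526.1 to 675.9 CPM. Both control ranges thus overlapped that of AA for Psmd2 and Psmd1, and lay under it for Psmd4. AA was not tested against the control groups.

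Among the ATPases of the base, 4 of 6 rose and all 6 log2 fold changes were above 0. Psmc1 had 267, 306 and 366 CPM in AA and 157, 216 and 282 in YY, a log2 fold change of 0.43 ± 0.09 (edgeR adjusted p = 0.000308). All 12 AA libraries lay above the YY median. Psmc4 averaged 252 ± 31 CPM in AA and 207 ± 14 in YY, Psmc6 150 ± 12 in AA and 124 ± 17.6 in YY, and Psmc2 356 ± 46.2 in AA and 299 ± 57 in YY (SD). Their log2 fold changes lay between 0.25 and 0.29, and the Psmc2 call was lost when any of 12 of the 23 libraries was left out. Psmc3 and Psmc5 were not called, both at a log2 fold change of 0.16.

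In the lid, 4 of 7 tested genes taken by symbol rose. The lid subunit Sem1, outside the symbol rule, was not called (log2 fold change 0.03 ± 0.1, edgeR adjusted p = 0.882). Psmd14, the subunit that cuts the ubiquitin chain from the substrate, had 69.1, 98.3 and 115 CPM in AA and 40.5, 70.8 and 111 in YY, a log2 fold change of 0.47 ± 0.13 (edgeR adjusted p = 0.00779). Psmd11 averaged 122 ± 19 CPM in AA and 93.6 ± 18.7 in YY, Psmd12 417 ± 52.1 in AA and 340 ± 35.4 in YY, and Psmd6 176 ± 16.1 in AA and 147 ± 21.5 in YY (SD), with log2 fold changes of 0.38, 0.29 and 0.25. These are structural subunits of the lid. Psmd3, another of them, ran the other way without passing the test, with 12.3, 23.9 and 36.5 CPM in AA and 12.1, 35.3 and 48.4 in YY (log2 fold change -0.54 ± 0.21, edgeR adjusted p = 0.0506).

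In the core, Psma6 of the alpha ring averaged 155 ± 22.9 CPM in AA and 127 ± 16.2 in YY, and Psmb2 of the beta ring 380 ± 43.2 in AA and 324 ± 31.5 in YY (SD). Both rose, with log2 fold changes of 0.28 ± 0.1 and 0.23 ± 0.07. The Psma6 call was lost when any of 7 of the 23 libraries was left out (log2 fold changes of 0.24 to 0.31 over all 23). The other 12 core genes were not called. They include the 3 genes of the catalytic sites: Psmb6 had a log2 fold change of 0.07 ± 0.07, Psmb7 0.2 ± 0.09 and Psmb5 -0.43 ± 0.21 (SE). Psma6 overlaps a ribosomal pseudogene row that held 669 counts in all, against 5467 for Psma6.

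**Figure D3:**
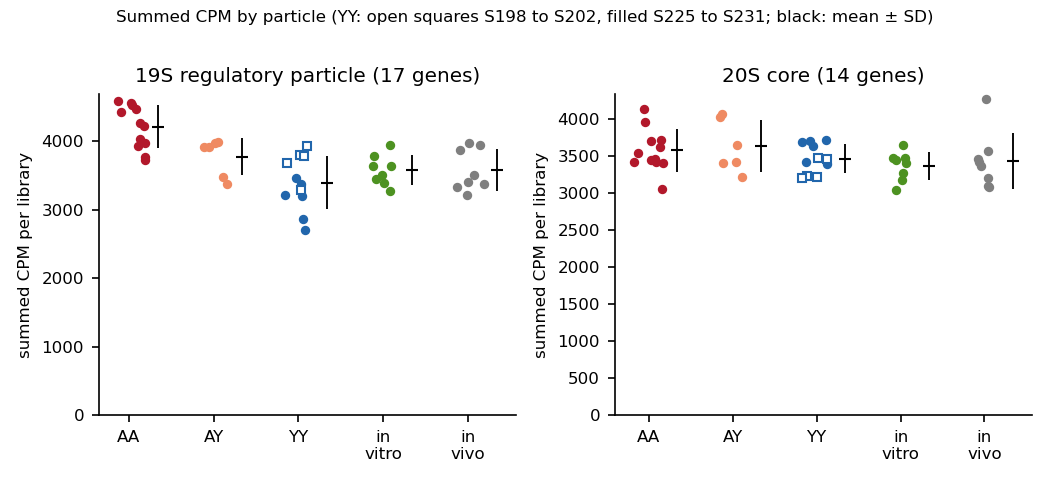
Summed CPM of the 17 genes taken by symbol for the 19S particle and of the 14 constitutive core genes in each library. The group mean and SD are in black and YY libraries S198 to S202 are open squares. In the 19S panel AA averages 4208 and YY 3392, and in the 20S panel AA averages 3574 and YY 3463.

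Summed over its 17 genes taken by symbol, the 19S particle held 4208 ± 314 CPM in AA, 3773 ± 272.2 in AY, 3392 ± 389 in YY, 3579 ± 219 in in vitro young and 3578 ± 303 in in vivo young oocytes (SD). The 14 core genes summed to 3574 ± 285 CPM in AA, 3628 ± 352 in AY, 3463 ± 200 in YY, 3364 ± 193 in in vitro young and 3433 ± 382 in in vivo young oocytes (SD). The means of the core ran from 3364 to 3628 CPM over the 5 groups. For the 19S particle, the AA mean was the highest, and no AA library fell under 3718 CPM, against a YY maximum of 3924.

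Outside both particles, Psmf1, an inhibitor of the core in the test tube that also binds it as an adaptor in cells, had 665, 779 and 959 CPM in AA and 508, 589 and 689 in YY. Its log2 fold change was 0.4 ± 0.07, with the smallest adjusted p of the members (edgeR, 2.98e-05), and the lowest AA library lay just inside the YY range. Psmd5, a chaperone that assists the assembly of the base, had 238, 301 and 359 CPM in AA and 108, 210 and 262 in YY (log2 fold change 0.61 ± 0.11, edgeR adjusted p = 5.4e-05). In vivo young replicate 6 had 142.9 CPM of Psmd5, and the other in vivo young libraries had 246.6 to 335.4, within the AA range. AA was not tested against in vivo young oocytes. The other 5 tested chaperones were not called, and Psmg1, Psmg3, Psmg4 and Psmd9 had log2 fold changes between -0.26 and -0.14. Psme3, which forms an activator of the core that works without ubiquitin, was the only member that fell, with 30.3, 55.3 and 74.9 CPM in AA and 45.3, 85.4 and 139 in YY (log2 fold change -0.69 ± 0.15, edgeR adjusted p = 0.000735). All 12 AA libraries lay under the YY median. Its partner by name, Psme3ip1, averaged 337 ± 25 CPM in AA and 285 ± 31.9 in YY (SD) and rose by a log2 of 0.24 (edgeR adjusted p = 0.0121).

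**Figure D4:**
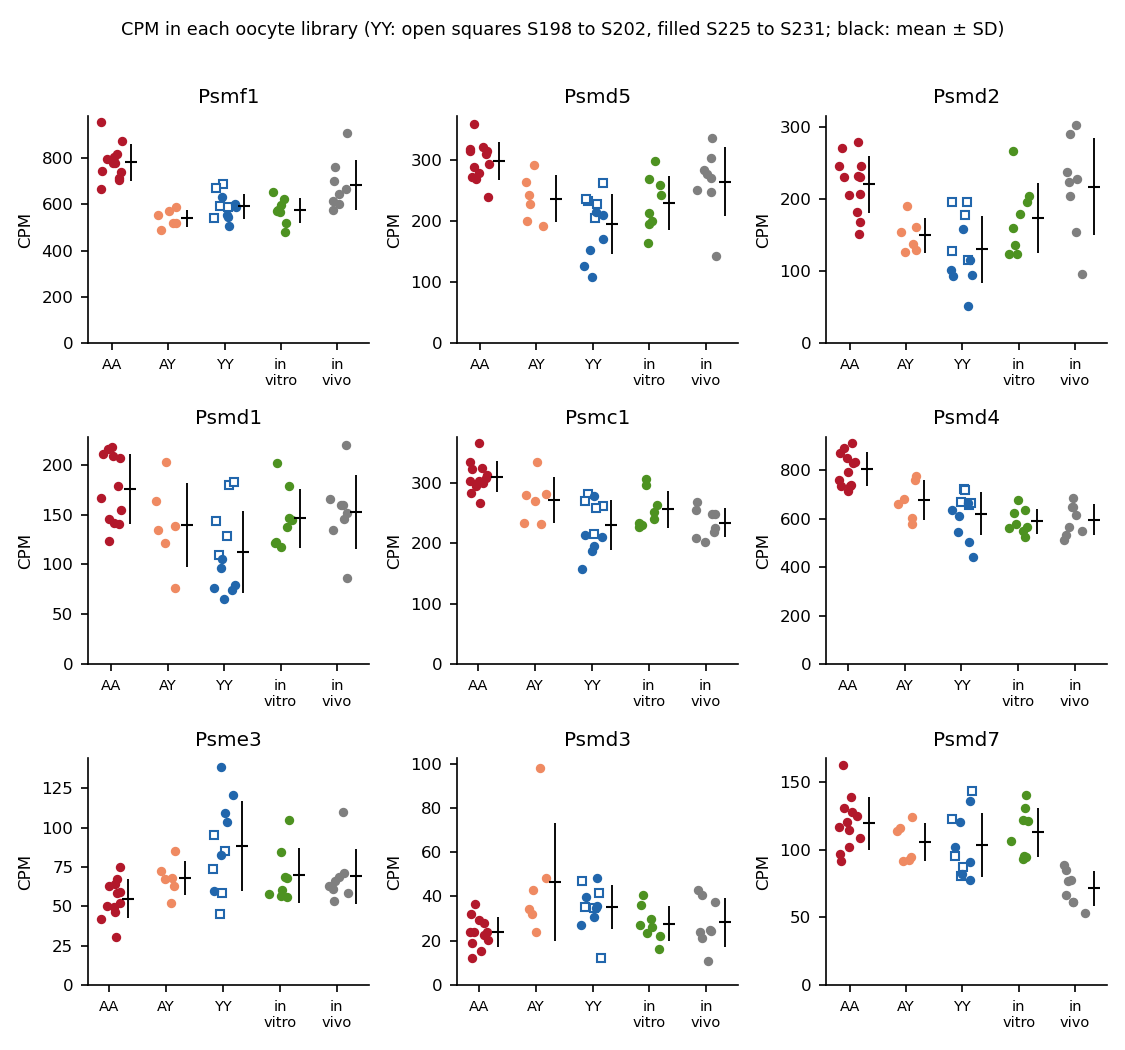
CPM in every library for 9 members, with YY libraries S198 to S202 as open squares and S225 to S231 as filled circles. For Psmd1 all filled YY points lie under the open squares, and 1 AY library stands apart for Psmd3 at 98.1 CPM.

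No member had AA and YY ranges that failed to overlap, against 0.645% of all genes tested. The 2 YY series differed for some of these genes and little for others: Psmc4 averaged 209.4 CPM in S198 to S202 and 204.7 in S225 to S231, Psma6 126.7 in S198 to S202 and 127.9 in S225 to S231, and Psmb2 323.7 in S198 to S202 and 324.2 in S225 to S231. Psmd1 averaged 148.7 CPM in S198 to S202 and 82.8 in S225 to S231, and Psmd2 163.3 in the first of these series and 103 in the second. Psmd5 averaged 232 CPM in S198 to S202 and 162.99 in S225 to S231, and Psme3, which ran the other way, 71.7 in S198 to S202 and 102 in S225 to S231. The 19S sum was 3694 ± 241.9 CPM in S198 to S202 and 3140 ± 297 in S225 to S231 (SD).

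Set against S198 to S202 alone, AA had 2 members higher, Psmf1 (log2 fold change 0.34, edgeR adjusted p = 0.0123) and Psmd5 (0.34, adjusted p = 0.035), and none lower, where 2.27% of all genes tested were higher and 3.15% lower. None of the 16 tested 19S genes was called there. Of those 16, 15 had a log2 fold change above 0 and 6 an unadjusted p under 0.05, with a median of 0.2. Against S225 to S231 alone, 11 of the 16 rose and Psmd3 fell, with a median of 0.34, where 18.7% of all genes were higher and 19.4% lower. Psmd2 then had a log2 fold change of 1.11, against 0.41 with S198 to S202, and Psmd1 1.09, against 0.22. The count of 16 higher members also fell to 7 when libraries that share a pattern of all-or-nothing genes (8 genes, none of them a member) were a random block, where 6.79% of all genes were higher and 5.88% lower in limma, and to 0 when the libraries of a pattern were summed, a setting in which 2 of all genes were called. After a GC and length correction, 10 members were higher and 3 lower, against 13.3% higher and 12.8% lower of all genes. AA held 2 such patterns among its 12 libraries and YY 4 among its 11, and the labels do not say what the libraries of a pattern share.

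**Figure D5:**
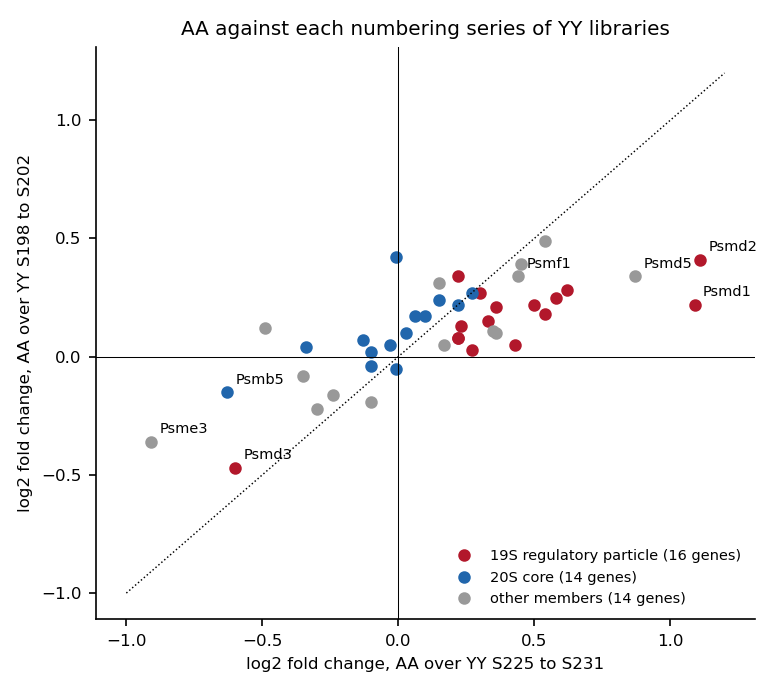
Log2 fold change of AA over YY libraries S225 to S231 (x axis) and over S198 to S202 (y axis) for each tested member. Psmd2 lies at 1.11 and 0.41 and Psmd1 at 1.09 and 0.22, while Psmf1 lies at 0.44 and 0.34.

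Genes that work beside the proteasome came from a list of 31, of which 26 were tested. In AA, 4 rose and 9 fell relative to YY, 15.4% and 34.6%, against 12.8% and 14.7% of all genes. Usp14, a deubiquitinase bound to Psmd2, had 81.8, 106 and 135 CPM in AA and 44.7, 73.6 and 88.3 in YY (log2 fold change 0.62 ± 0.12, edgeR adjusted p = 0.000101). Ubb, which encodes a chain of ubiquitins, had 6148, 7778 and 8606 CPM in AA and 4893, 5601 and 6201 in YY (0.45 ± 0.06, adjusted p = 1.1e-06). Its coding sequence is a run of near-identical repeats, so its level is uncertain. Ngly1, which removes glycans from Nfe2l1, averaged 145 ± 29.1 CPM in AA and 98 ± 19.6 in YY and rose by a log2 of 0.56.

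The shuttle factors that carry ubiquitinated proteins to the base were lower. Rad23b averaged 27.9 ± 8.74 CPM in AA and 49.9 ± 9.62 in YY (log2 fold change -0.82), and Ubqln1 95.7 ± 16.5 in AA and 143 ± 31.5 in YY (-0.59). Zfand5, which binds and stimulates the particle, had 25.3, 37.4 and 70.7 CPM in AA and 40.3, 95.4 and 236 in YY (log2 fold change -1.37 ± 0.27, edgeR adjusted p = 0.000403). Nfe2l1 itself, chosen after its values were seen, averaged 20.4 ± 6.73 CPM in AA and 36.3 ± 18.4 in YY (SD; log2 fold change -0.86, edgeR adjusted p = 0.00683). Against S198 to S202 alone, 2 associated genes were called, Ubb and Usp14, where 2.27% of all genes were higher and 3.15% lower.

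The comparison of AY with AA keeps the oocyte aged and changes the somatic cells. It shares the AA libraries with the comparison above, so the values are given on their own. Of 44 tested members 1 rose and 1 fell (2.27% each), against 3.52% higher and 3.07% lower of all genes. Psmf1 fell, with 488, 536 and 590 CPM in AY and 665, 779 and 959 in AA. The groups did not overlap, as for 0.832% of all genes tested, and the log2 fold change was -0.54 ± 0.08 (edgeR adjusted p = 8.71e-05). The AY values also lay within or under the YY range of 508 to 689 CPM. With patterns of all-or-nothing genes as random blocks in limma, the change was -0.5 (adjusted p = 0.0122), and with the libraries of a pattern summed it was -0.48 and not called (edgeR adjusted p = 0.519).

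Psmd3 was called higher in AY through 1 library. It had 23.9, 38.5 and 98.1 CPM in AY and 12.3, 23.9 and 36.5 in AA (log2 fold change 0.97 ± 0.24, edgeR adjusted p = 0.0115). AY replicate 1, the library S234, held the highest value, and the other 5 AY libraries lay between 23.9 and 48.3 CPM. Without it the log2 fold change was 0.58 with an adjusted p of 0.182.

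Of the 16 tested 19S genes, 2 had a log2 fold change above 0 in AY relative to AA, with a median of -0.15, and of the 14 core genes 10 did, with a median of 0.06. Psmd2 had 126, 146 and 191 CPM in AY and 151, 230.8 and 280 in AA, a log2 fold change of -0.57 ± 0.18 that did not pass the test (edgeR adjusted p = 0.0521). DESeq2 called it (adjusted p = 0.0316, log2 fold change -0.57). Psmd5 had a log2 fold change of -0.34, Psma6 -0.33 and Psme3ip1 -0.23, none called. In the role groups without a call, the smallest p belonged to Psmd2, Psma6, Psmd5 and Psme3ip1, and to Psmc1 among the ATPases (log2 fold change -0.2), Psmb1 in the beta ring (0.16) and Psmb11 (-0.35). None of the 26 tested associated genes was called by edgeR, and 8 (30.8%) had an unadjusted p under 0.05, against 21.9% of all genes.

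The comparison of AY with YY keeps the somatic cells young and changes the oocyte's age. No member was called by edgeR or by DESeq2, against 0.715% higher and 0.902% lower of all genes by edgeR. At an unadjusted edgeR p under 0.05 were 7 of 44 members (15.9%), near the 14.1% of all genes. Of the 16 tested 19S genes, 15 had a log2 fold change above 0, with a median of 0.16 and a highest value of 0.43. Against S198 to S202 alone, 9 of the 16 were above 0, with a median of 0.03. The smallest p belonged to Psma5 in the alpha ring (91.2 CPM in AY and 66 in YY, log2 fold change 0.45 ± 0.16, edgeR adjusted p = 0.151) and Psmd6 in the lid (179 CPM in AY and 147 in YY, 0.27 ± 0.11, adjusted p = 0.23). A pseudogene row of Psma5 held 2081 counts in all, against 3151 for Psma5, so its level is uncertain. Psmf1, the member called lower in AY than in AA, averaged 540 ± 37.6 CPM in AY and 592 ± 54.9 in YY (SD). Its log2 fold change was -0.14 ± 0.08 (edgeR adjusted p = 0.475).

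The result for AY and YY also changed with the YY series. Against S225 to S231 alone, 7 members were higher (Psmd1, Psmc2, Psmd5, Psmd2, Psmc1, Psmd11 and Psmd6) and Psme3 was lower, where 5.74% of all genes were higher and 4.52% lower. Against S198 to S202 alone, only Psma5 was called (log2 fold change 0.71, edgeR adjusted p = 0.0383), where 0.65% of all genes were higher and 0.963% lower, and 10 of the 44 members changed sign, among them Psmd2 (-0.16), Psmd1 (-0.13), Psmd14 (-0.08), Psmd4 (-0.03), Psmd7 (-0.03) and Psmc3 (-0.02) of the 19S particle. Among the associated genes Ubb was called, with 6806, 6984 and 7694 CPM in AY and 4893, 5601 and 6201 in YY. The groups did not overlap, as for 0.234% of all genes, and the log2 fold change was 0.34 ± 0.07 (adjusted p = 0.00822), or 0.3 against S198 to S202 alone (adjusted p = 0.0581).

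YY oocytes were compared with in vitro young oocytes, which were also cultured but not transferred. No member was called by edgeR or DESeq2, against 0.777% higher and 1.7% lower of all genes by edgeR. At an unadjusted edgeR p under 0.05 were 6 of 44 members (13.6%), against 16.6% of all genes. Log2 fold changes ran from -0.42 for Psmd2 (130 ± 46.9 CPM in YY and 174 ± 48.9 in in vitro young oocytes, SD, edgeR adjusted p = 0.326) to 0.43 for the core chaperone Psmg3. Psmc6 had the smallest p, with 124 ± 17.6 CPM in YY and 148.1 ± 23.7 in in vitro young oocytes (SD; log2 fold change -0.27, adjusted p = 0.182). With YY libraries S225 to S231 alone, Psmd1, Psmd2 and Psmc2 were lower and Psme3 higher than in in vitro young oocytes, where 5.15% of all genes were lower and 3.84% higher. With S198 to S202 alone no member was called, where 0.289% of all genes were higher and 0.811% lower. The ranges of YY and in vitro young oocytes overlapped for every member, and failed to overlap for 0.103% of all genes. Of 27 tested associated genes, Ecpas, a scaffold that binds the particle, fell in YY, with 171 ± 19.2 CPM against 227.5 ± 25.4 in in vitro young oocytes (SD; log2 fold change -0.42, adjusted p = 0.00485).

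In vitro young and in vivo young oocytes differ in culture, and also in library series. The lid subunit Psmd7 was the only member called, 1 of 44 (2.27%), against 0.126% higher and 0.0114% lower of all 8749 genes tested. It had 92.8, 114 and 140 CPM in in vitro young oocytes and 53.2, 71.7 and 88.9 in in vivo young oocytes, and the groups did not overlap, as for 0.183% of all genes. The log2 fold change was 0.65 ± 0.14 (edgeR adjusted p = 0.0385). The call was lost when any of 12 of the 16 libraries was left out, with log2 fold changes between 0.59 and 0.68 and adjusted p between 0.0523 and 0.123. Psmb5, the chymotrypsin-like subunit, had 18.3, 23.7 and 28.1 CPM in in vitro young oocytes and 2.18, 12.7 and 20 in in vivo young oocytes, a log2 fold change of 0.91 ± 0.26 that did not pass the test (edgeR adjusted p = 0.161). It rested on 219 counts in the in vitro young and 116 in the in vivo young libraries. Psmf1 ran the other way, with 575 ± 55.3 CPM in in vitro young and 684 ± 108 in in vivo young oocytes (SD; log2 fold change -0.24, adjusted p = 0.348). The 19S genes had a median log2 fold change of -0.01 and the core genes 0.02. None of the 27 tested associated genes was called by edgeR, and 7 (25.9%) had an unadjusted p under 0.05, against 9.65% of all genes.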

How the data were processed

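RNA of 45 single oocytes was sequenced, with cDNA amplified by a low-input kit, per the labels' protocols. The authors deposited 1 table of whole-number read counts per gene, not normalized. STAR 2.7.8a, HTSeq 0.11.0 and the build mm39 are named in the submitters' processing notes. The sources used here do not give the strand setting, so reads of overlapping or antisense genes, and of pseudogene copies, may be split (25 of the 51 members overlap another row, 14 of them a row with counts). Reads carry no molecular identifiers. Totals ranged from 418703 to 2201980 counts. Within each group every pair of libraries differed by more than counting noise (chi-square over its degrees of freedom at least 2.08).

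Counts were tested with edgeR 4.0.16 in R 4.3.3 (TMM scaling, filterByExpr by group with a minimum count of 10 and a minimum total of 15, robust quasi-likelihood fit, Benjamini-Hochberg adjustment over all genes, calls at an adjusted p under 0.05). AA, AY and YY shared a fit of 29 libraries and 8533 genes; YY and the controls shared one of 27 libraries and 8749 genes. CPM are scaled by TMM over 45 libraries except where unscaled. Standard errors came from the F statistic. Transcript lengths and GC content came from GENCODE M21, matched by gene identifier, and promoters from RefSeq. Floors took 3 counts of a group's total. The fit was tested on simulated data. Alternatives were RLE size factors, no filter, DESeq2 1.42.0, all 45 libraries in 1 fit, a replicate block, each YY series alone, libraries grouped by a pattern of all-or-nothing genes (log CPM with a prior count of 2, a gap of at least 3 log2 units) as a limma 3.58.1 random block or summed, a GC and length correction, and each library left out in turn. Members were named where called (at most 12 per comparison in full, smallest p first), with the smallest p of each role otherwise; associated genes were named where called, at most 6. The members and lists were chosen with earlier results of these data known.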

Additional observations from a re-analysis of the deposited data

Results flagged for a closer look

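In groups of 4 to 10 oocytes, the highest or lowest library was set apart from the others by a gap that is large for the group's range (Dixon's test at 95%) in 15 of 132 pairs of a tested member and a group, 11.4%, where chance gives about 1 in 20. In vivo young replicate 6, the library with the most counts of the series, accounts for 5 of them: 216 CPM for Psmb3 (others 106 to 151), 527 for Psmb6 (others 372 to 437), 110 for Psme3 (others 53.2 to 71.5), 142 for Psmg1 (others 72.5 to 102) and, at the low end, 143 for Psmd5 (others 247 to 335). The other in vivo young values were 104 CPM for Psmc3 in replicate 5 (others 146 to 180) and 111 for Psmd14 in replicate 3 (others 62.2 to 80.5).

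Among the AY oocytes, replicate 1 had 98.1 CPM for Psmd3 (others 23.9 to 48.3) and 134 for Psmd6 (others 178 to 199.4), both of the lid. AY replicate 6 had 197.5 CPM for Psmc6 (others 115 to 136) and 120 for Psmc3ip (others 68.4 to 85.4), and AY replicate 2 had 247 for Psmd9 (others 275.3 to 285). Among the in vitro young oocytes, replicate 3 had 449 CPM for Psma2 (others 347 to 394), replicate 2 had 191 for Psmb4 (others 140 to 162.8) and replicate 1 had 154 for Psmg1 (others 88 to 112). A further value, that of Psmb3 in in vitro young replicate 6, lay at the critical ratio and counted when CPM were rounded to 3 digits but not with 4. AA and YY hold more than 10 libraries and were not examined in this way.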

How the results depend on the processing

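The 16 members higher in AA than in YY numbered 10 after the GC and length correction, 2 with YY libraries S198 to S202 alone, 7 with patterns as random blocks and 0 with the libraries of a pattern summed; leaving out each library gave 13 to 17. The 1 lower member numbered 3, 0 and 0 after the GC correction, with S198 to S202 alone and with summed libraries, 4 with S225 to S231 alone, and 1 to 3 over the left-out libraries. The 13 associated genes numbered 2 with S198 to S202 alone, 8 with the random block and 0 when summed. Calls were lost without single libraries for Psma6 (YY replicates 2, 7 and 9; AA 3, 4, 6 and 8), Psmc2 (YY 4, 6, 7, 8, 9 and 10; AA 1, 2, 3, 4, 5 and 9), Psmc6 (YY 8) and Psmd6 (YY 8 and 9; AA 3, 4 and 12).

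For AY against AA, the 1 higher member numbered 0 after the GC correction, with the random block and when summed, and 0 to 1 over the left-out libraries. The 1 lower member numbered 2 with DESeq2 and with no filter, 4 after the GC correction, 0 when summed and 1 to 2 over the left-out libraries; the associated genes numbered 0 to 1. For AY against YY, the 0 higher members numbered 1 with S198 to S202 and 7 with S225 to S231 alone, the 0 lower members 1 with S225 to S231, and the 1 associated gene 0 with S198 to S202, 4 with S225 to S231 and 0 when summed. For YY against in vitro young, S225 to S231 alone gave 1 higher and 3 lower members, and the 1 associated gene numbered 0 with S198 to S202 and when summed, and 1 to 2 over the left-out libraries. Between the control groups, the 1 higher member numbered 0 with the random block, when summed, and 0 to 1 over the left-out libraries. The causes were not tested.

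Over all 44 tested members and the alternatives other than left-out libraries, no log2 fold change that changed sign belonged to a called member; with S198 to S202 alone, 4 changed sign for AA against YY, 10 for AY against YY and 13 for YY against in vitro young. Among the members that the naming rule took, the following changed sign. For AY against YY these were Psmb11 (0.01 with S225 to S231 alone, 0.07 with the replicate block, 0 and 0.03 without YY replicates 3 and 4, and -0.29 to 0.03 over the left-out libraries), Psmc3ip (-0.01 without AY replicate 6, and up to 0.17) and Psmd1 (-0.13 with S198 to S202 alone). For YY against in vitro young they were Psmb3 (-0.04) and Psmd1 (0.04), both with S198 to S202 alone, where Psmd2 for AY against YY (-0.16) and Psmc2 for YY against in vitro young (0.04), named for their calls with S225 to S231, changed sign too. RLE size factors moved no count of called members beyond 1.5 times.

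Replicate numbers were not taken as pairs of oocytes. Same-numbered libraries deviated together with a correlation over 0.1 in 2 of 11 pairs for AA and YY and in 0 of 6 for AY and AA. They did so in 2 of 6 for AY and YY, 0 of 8 for YY and in vitro young, and 4 of 8 between the control groups (highest 0.24). With replicate number as a block, AY against AA had 2 higher and 5 lower members and 2 associated genes. That block gave 0 associated genes for AY against YY, and 0 higher members between the control groups.

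Over all genes, 2348 calls for AA against YY became 451 with S198 to S202 alone, 1081 with the random block and 2 when summed. For AY against AA, 562 became 80 with the random block, 1 when summed and 1078 with the replicate block. For AY against YY, 138 became 22 with the random block, 0 when summed, 236 with no filter and 847 with S225 to S231 alone. For YY against in vitro young, 217 became 88 with the random block, 0 when summed, 419 with DESeq2, 378 with all 45 libraries, 115 with the replicate block, 99 with S198 to S202 and 803 with S225 to S231 alone. Between the control groups, 12 became 46 with DESeq2, 29 with all 45 libraries and with no filter, 19 after the GC correction, 6 with the replicate block, and 0 with the random block and when summed. Psmb8, Psmb9, Psmb10, Psma8, Psme1, Psmg2 and Psmd13 had too few counts at these depths to be tested.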
